A study of Mus musculus with 2 samples.

Results

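The genes described here are 49 genes of the endoplasmic reticulum (ER) stress response and of the early secretory pathway, chosen by symbol. The deposited table gave 48 of them a row of their own, among 31636 genes with such a row. The remaining gene, Mia3, has no row under that spelling and is not counted. RNA sequencing covered 2 libraries of sorted bone marrow cells from adult C57BL/6 mice. The gate kept GFP+ cells, whose GFP is driven by nestin regulatory sequence, that lacked the blood and vessel proteins CD45, CD31 and Ter119. The control library came from littermates labelled Nes-gfp, and the other library from Nes-gfp;Mx1-cre;JAK2-V617F mice. The labels name pIpC, a double-stranded RNA that switches on the interferon-driven Mx1-cre, as the treatment of both groups, and collection followed 6 weeks later. Each library pooled 3 animals of 1 genotype, so n = 1 per group, no value below has a replicate error, and no difference between the libraries was tested. The labels give the controls neither Mx1-cre nor JAK2-V617F, so Cre and the mutation cannot be told apart. Mx1-cre acts wherever interferon reaches, blood cells above all, so the sorted stromal cells need not carry the mutation themselves.

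Proteins bound for secretion enter the ER through the Sec61 channel, are folded, glycosylated and oxidised there, and leave in COPII-coated vesicles for the Golgi, from which KDEL receptors return escaped ER chaperones. When unfolded protein accumulates, the membrane sensors ATF6, IRE1 and PERK start the unfolded protein response, which raises chaperone, degradation and export genes and, through ATF4 and CHOP, genes of amino acid supply and cell death. Osteoblasts and chondrocytes secrete collagen-rich matrix in bulk and stromal niche cells secrete chemokines and growth factors, so all depend on this machinery.

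FPKM, the number of fragments per kilobase of transcript scaled to library depth, is the unit of every level below and already accounts for transcript length. Ratios are log2((JAK2 V617F FPKM + 1)/(control FPKM + 1)), which understates differences of low genes, and calls were made at 2-fold, a log2 ratio of 1. Genes had to reach 1 FPKM in at least 1 library. Steps among the low values put the depth at about 5330000 fragments in the control library and 6110000 with JAK2 V617F. These depths hold only if FPKM was scaled to the total fragments of each library, which the sources used here do not state. The summed FPKM of the table was higher in the control, and giving both libraries the same sum would add 0.18 to the log2 ratio of a well-expressed gene. Ratios are given as deposited, and small ones turn over with that rescaling.

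The libraries held marker RNA of more than stromal cells. All 8 stromal markers were present in both libraries, with summed levels of 1136 FPKM in controls and 888 FPKM with JAK2 V617F. The 9 osteoblast markers summed to 5868 and 2955 FPKM, the 8 chondrocyte markers to 315 and 647 FPKM, the 8 erythroid markers to 2549 and 1297 FPKM, and the 7 pan-leukocyte markers to 307 and 424 FPKM. The 8 neutrophil markers summed to 2154 and 2122 FPKM, but 3 of them were lower by 2-fold or more (Ngp, Camp and Ltf, log2 ratios of -1.30, -1.13 and -1.33) and Prtn3 lay at 0.66. The 6 endothelial markers summed to 28.3 and 33.7 FPKM, with Emcn at 0.196 and 5.15 FPKM (2.36) and Kdr at 2.50 and 1.05 FPKM (-0.77). The 8 plasma cell markers summed to 78.1 and 77.0 FPKM, but most of this was Xbp1 itself, at 46.3 and 53.9 FPKM. Of these, Igj was listed at 0 in both libraries, Tnfrsf17 stayed below 1 FPKM, and Prdm1 had 4.69 FPKM with JAK2 V617F but a listed 0 in controls. Irf4 was at 3.51 and 5.29 FPKM, Sdc1 at 9.09 and 4.38 FPKM, Mzb1 at 5.04 and 2.44 FPKM and Fkbp11 at 13.9 and 5.83 FPKM. The part of these cell types in the values below was not tested, and in such pools fewer cells of a type and less RNA per cell cannot be told apart.

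The DNA elements through which the unfolded protein response acts are described first. Of the 41 genes with a promoter window, 14 held a match to at least 1 of them, a share not computed over all genes. RefSeq promoter windows of GRCm38.p6, running from 250 bases before to 50 bases after each start, were found for 41 of the 48 genes and searched on both strands for 4 motifs. The ER stress response element (ERSE, bound by ATF6 with NF-Y), searched as CCAAT and CCACG set 9 bases apart, was in the windows of 6 of the 41 genes (14.6%) and of 37 of all 27025 genes in the table (0.137%). Its second form, ERSE-II (ATTGG and CCACG, 1 base apart), was in Herpud1 and in 0.0444% of all genes. The unfolded protein response element core of XBP1 and ATF6 (UPRE, TGACGTGG) was in Kdelr3, Sec23a and Sec24d, 7.32% of the 41, against 0.714% of all genes. The core of the composite site of ATF4 and CHOP (CARE, TGATGNAA) was in Asns, Chac1, Herpud1, Kdelr1 and Trib3, 12.2% of the 41, against 4.51%. No match of one motif overlapped another. These shares describe letters in a window and not binding, and the genes were listed for their known place in this response.

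The windows of all 7 genes with a form of the ERSE are printed, with 1 example each of the other motifs taken from windows that touch no annotated exon. They run from 5′ to 3′ along the gene, with 20 bases on either side of the match and the motif in capitals. The ERSE reads CCAAT then CCACG in the forward orientation and CGTGG then ATTGG in reverse.
Calr, reverse, first base 162 before the start, chr8:84847055-84847113, minus strand: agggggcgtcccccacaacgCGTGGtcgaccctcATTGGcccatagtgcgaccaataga
Canx, forward, 145 before the start, chr11:50325780-50325838, minus strand: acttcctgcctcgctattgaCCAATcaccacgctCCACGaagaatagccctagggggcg
Creld2, reverse, 126 before the start, chr15:88819500-88819558, plus strand: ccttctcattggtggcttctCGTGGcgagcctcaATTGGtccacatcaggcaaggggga
Pdia6, forward, 98 before the start, chr12:17266471-17266529, plus strand: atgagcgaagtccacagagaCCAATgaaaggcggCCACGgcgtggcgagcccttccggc
Syvn1, forward, 44 before the start, chr19:6046512-6046570, plus strand: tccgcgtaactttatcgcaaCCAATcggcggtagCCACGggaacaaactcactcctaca
Ero1lb, reverse, 201 before the start, chr13:12565662-12565720, plus strand: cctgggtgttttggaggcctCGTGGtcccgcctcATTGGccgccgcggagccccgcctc
Herpud1 with ERSE-II, forward, 52 before the start, chr8:94386357-94386407, plus strand: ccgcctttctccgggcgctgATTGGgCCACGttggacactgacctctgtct
Herpud1 with the CARE core, reverse, 112 before the start, chr8:94386297-94386344, plus strand: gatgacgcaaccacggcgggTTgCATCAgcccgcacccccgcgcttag
Kdelr3 with the UPRE core, reverse, 30 before the start, chr15:79516358-79516405, plus strand: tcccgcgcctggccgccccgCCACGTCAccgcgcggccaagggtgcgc
Of the 7 genes with either form of the ERSE, 4 had a log2 ratio above 0 as deposited, with a median of 0.24. Of the 32 other genes with a window and at 1 FPKM or more, 14 were above 0, with a median of -0.09. Over all protein-coding genes at that filter, 47.4% were above 0. Canx, at -0.15, turned to 0.03 when both libraries had the same sum. Of the genes without an ERSE, Creb3l2, P4hb, Ppib, Sec61g, Ssr3 and Sec24d also turned from below to above 0. Over all protein-coding genes, 58.6% were then above 0. The difference between genes with and without an ERSE was not tested.

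**Figure D1:**
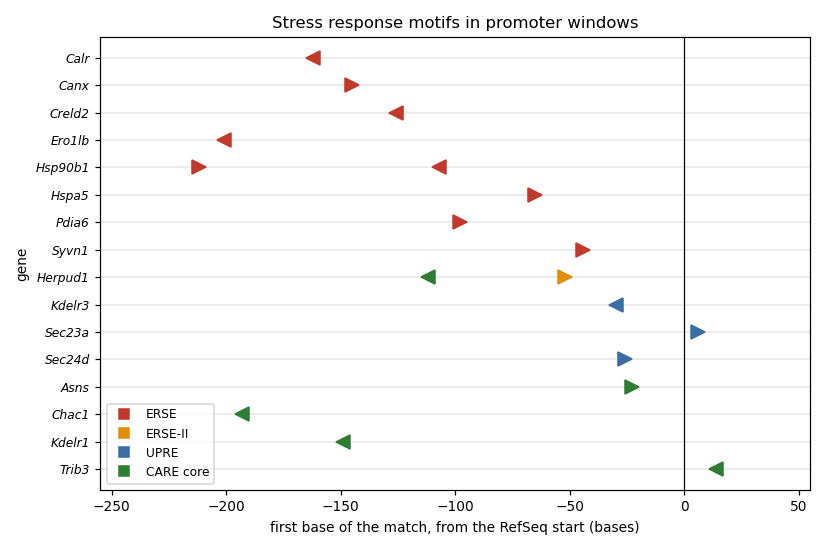
Place of each motif match in the promoter windows, as the distance in bases of its first base from the RefSeq start (x axis), for the genes with a match and for Hspa5 and Hsp90b1, 2 chaperone genes that are not among the 48; triangles pointing right are forward matches and those pointing left are reverse. The ERSE matches lie between 212 and 44 bases before the start, and Hsp90b1 holds 2 of them.

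Most of the 48 genes had similar levels in both libraries. Of the 46 that reached 1 FPKM, 1 was higher with JAK2 V617F by 2-fold or more, Edem2, and 0 were at least 2-fold lower. Over the 12447 protein-coding genes at that filter, 10% were at least 2-fold higher and 8.68% at least 2-fold lower. Among the 9555 such genes at 5 FPKM or more, where 45 of the 46 lie, the shares were 6.72% and 7.92%. At 1.5-fold, 3 genes were higher (Edem2, Sdf2l1 and Sel1l, 6.52% of the 46) and 5 lower (Ern1, Atf4, Ero1lb, Sec23a and Sec23b, 10.9%), against 19.0% and 19.2% of all genes. With both libraries at the same sum, the counts at 1.5-fold were 9 higher and 0 lower, against 24.9% and 14.2% of all genes. The median log2 ratio of the 46 was -0.12, with quartiles of -0.34 and 0.33, beside a median of -0.04 and quartiles of -0.45 and 0.42 over all genes. The log2 ratio was above 0 for 20 of the 46 (43.5%), against 47.4% of all genes, and for 27 (58.7%) at the same sum, against 58.6%. These shares lie near or below those of all genes.

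**Figure D2:**
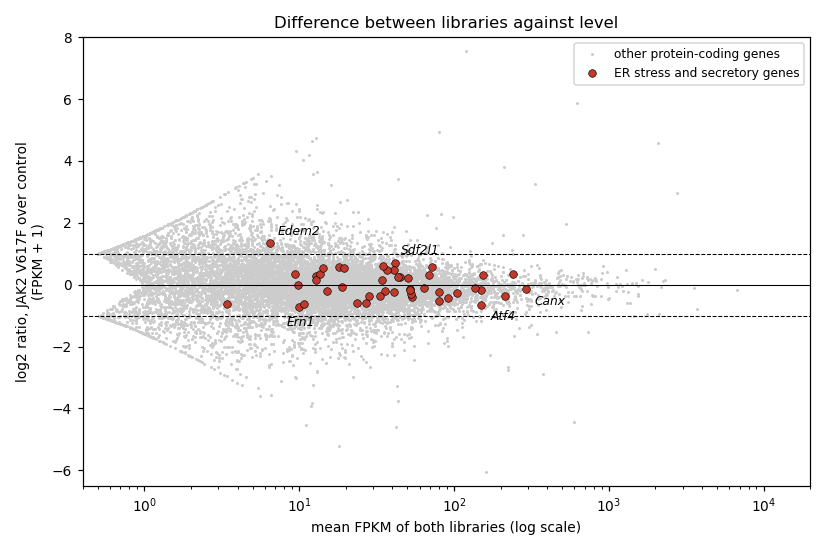
Log2 ratio of the JAK2 V617F over the control library (y axis, FPKM + 1) against the mean FPKM of both (x axis, log scale) for 12447 protein-coding genes in grey and the 46 ER stress and secretory genes in red; dashed lines mark 2-fold. Edem2 alone among the red points lies outside the dashed lines, at 1.36.

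Levels differed far more between genes than between libraries. The highest gene, Canx, which encodes the membrane lectin chaperone calnexin, was at 306 FPKM in controls and 276 FPKM with JAK2 V617F (-0.15, and 0.03 at the same sum). It was first in both. Calr, Pdia3, P4hb, Atf4, Asns and Ssr3 were also above 100 FPKM in both libraries, and 40 of the 48 were above 10 FPKM in both. The median was 36.2 FPKM in controls and 42.8 FPKM with JAK2 V617F, against 12.7 and 12.1 FPKM over all protein-coding genes at the filter. Summed levels of the 48 were 2858 and 2739 FPKM, a ratio of 0.958.

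**Figure D3:**
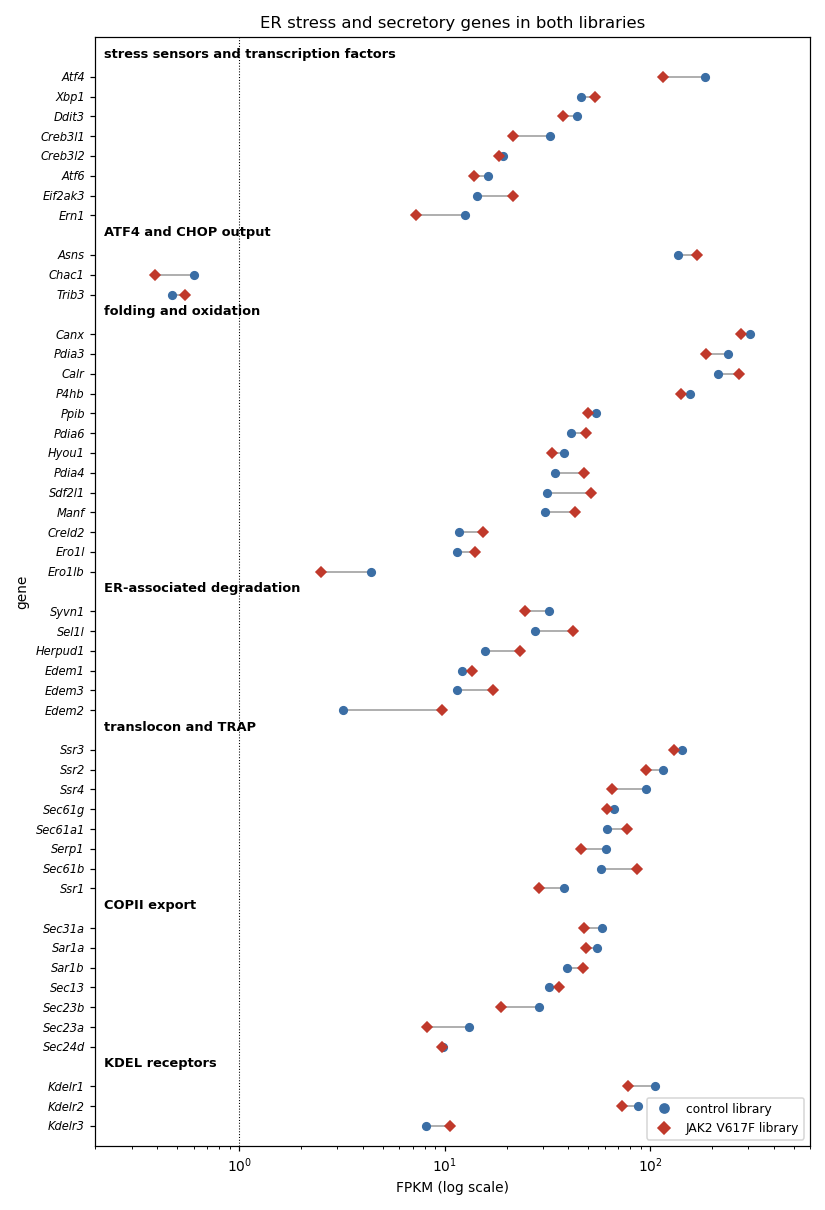
FPKM (x axis, log scale) of each of the 48 genes in the control library (blue circles) and the JAK2 V617F library (red diamonds), grouped by role, with a dotted line at 1 FPKM. The pairs of points are close for most genes, the gap for Edem2 (3.19 and 9.74 FPKM) is the widest, and Trib3 and Chac1 lie below 1 FPKM in both libraries.

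Of the 8 sensors and transcription factors, none passed 2-fold, 6 lay below 0 and 2 above, with a median log2 ratio of -0.21 (-0.04 at the same sum). Ern1, which encodes IRE1, the sensor that splices Xbp1 mRNA, was at 12.6 FPKM in controls and 7.23 FPKM with JAK2 V617F (-0.73), from about 34 and 22 fragments on its shortest coding transcript. Eif2ak3, which encodes PERK, the kinase that slows translation through eIF2α, was at 14.3 and 21.6 FPKM (0.57). Atf6, the sensor that is cut in the Golgi to free a transcription factor, was at 16.2 and 13.9 FPKM (-0.21, and -0.04 at the same sum). The sensor genes therefore lay on different sides of 0, Eif2ak3 above and Ern1 below, and kept those sides under the rescaling. Eif2ak3 and Atf6 lie in loci that hold other rows as well.

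Atf4, the transcription factor whose translation PERK favours, had the highest level of the group and was at 184 FPKM in controls and 116 FPKM with JAK2 V617F (-0.65). Its gene has 1 annotated coding transcript, from which about 1538 and 1118 fragments were estimated, a ratio of 0.634 with an exact (Clopper-Pearson) 95% counting interval of 0.587 to 0.685. Such intervals cover counting error only, since amplified reads without molecular identifiers are not separate molecules. The interval of Ern1, on its shortest coding transcript and as deposited, was 0.315 to 0.993, with its upper end close to 1. Ddit3, which encodes CHOP, was at 44.1 and 37.7 FPKM (-0.22), in a locus that holds other rows as well. Xbp1 was at 46.3 and 53.9 FPKM (0.22), a value that does not separate the spliced from the unspliced form.

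The ER-tethered factors of matrix-secreting cells differed between each other. Creb3l1, which encodes OASIS, a driver of collagen secretion in osteoblasts, was at 32.6 FPKM in controls and 21.4 FPKM with JAK2 V617F (-0.58). Creb3l2, which encodes BBF2H7, a regulator of Sec23a in chondrocytes, was at 19.3 and 18.3 FPKM (-0.07, and 0.10 at the same sum). The ratio of Creb3l1 to Creb3l2 was 1.69 in controls and 1.17 with JAK2 V617F. Osteoblast markers summed lower and chondrocyte markers higher in that same library, as given above. A link between those sums and the levels of Creb3l1 and Creb3l2 was not tested.

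The output genes of ATF4 and CHOP were split by level. Asns, which encodes asparagine synthetase, was at 137 FPKM in controls and 169 FPKM with JAK2 V617F (0.31), in the opposite direction to Atf4. Trib3, a pseudokinase gene induced by CHOP, was at 0.472 and 0.548 FPKM, from about 5 and 6 fragments. Chac1, whose product degrades glutathione, was at 0.602 and 0.390 FPKM, from about 5 and 4 fragments. At this depth no difference in Trib3 or Chac1 was detectable, and both were left out of the counts above.

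The folding and oxidation genes included most of the highest levels. Of these 13 genes, 7 lay above 0 and 6 below (10 and 3 at the same sum), none passed 2-fold, and the median log2 ratio was 0.24. Their summed level was 1174 FPKM in controls and 1179 FPKM with JAK2 V617F. Calr, which encodes the lumenal lectin calreticulin and is itself mutated in human myeloproliferative neoplasms, was at 214 and 270.3 FPKM (0.33). Its ratio was 1.26 with a counting interval of 1.2 to 1.33, from about 2318 and 3352 fragments. The ratio of Calr to Canx, both with an ERSE in the windows printed above, was 0.701 in controls and 0.978 with JAK2 V617F. Pdia3, the disulfide isomerase that works with both lectins, was at 239 and 186 FPKM (-0.36), in a locus that holds other rows.

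The other disulfide isomerases did not share a direction. Pdia4 was at 34.6 FPKM in controls and 47.8 FPKM with JAK2 V617F (0.46), and Pdia6 at 41.1 and 48.5 FPKM (0.24). P4hb, which encodes protein disulfide isomerase and is also a subunit of collagen prolyl 4-hydroxylase, was at 157 and 140.5 FPKM (-0.16, and 0.02 at the same sum). Ppib, which encodes the collagen-folding prolyl isomerase cyclophilin B, was at 54.5 and 49.7 FPKM (-0.13, and 0.04 at the same sum). On their shortest coding transcripts, P4hb and Ppib were within the counting error of equality as deposited, with intervals of 0.789 to 1.01 and 0.754 to 1.11. On the longest coding transcript of P4hb, with about 2267 and 2322 fragments, the interval would be narrower and was not computed.

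The remaining folding genes also differed in direction. Sdf2l1, a partner of the chaperone BiP, was at 31.5 FPKM in controls and 51.5 FPKM with JAK2 V617F (0.69, ratio 1.64 with an interval of 1.35 to 2.00). Manf, a secreted ER stress protein, was at 30.6 and 43.3 FPKM (0.49), and Creld2 at 11.8 and 15.4 FPKM (0.36). The interval of Creld2, 0.979 to 1.79, held 1. Hyou1, the large lumenal chaperone GRP170, lay on the other side, at 38.2 and 33.1 FPKM (-0.20, and -0.03 at the same sum).

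The ER oxidases, which reoxidise disulfide isomerases, lay on opposite sides of 0. Ero1l was at 11.5 FPKM in controls and 14.0 FPKM with JAK2 V617F (0.27), and Ero1lb at 4.36 and 2.49 FPKM (-0.62). Their sum was similar, at 15.8 and 16.5 FPKM, while the ratio of Ero1l to Ero1lb was 2.63 in controls and 5.64 with JAK2 V617F. Ero1lb had few fragments, about 42 and 28 on its shortest coding transcript.

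ER-associated degradation, which sends misfolded proteins back to the cytosol, held the only gene past 2-fold. Of its 6 genes, 5 lay above 0 and 1 below, as deposited and at the same sum, with a median log2 ratio of 0.54 beside -0.04 over all genes. The 16 other genes of this process had 6 above 0 and 10 below, with a median of -0.24 (7, 9 and -0.07 at the same sum). Among those 16, Man1b1, an ER mannosidase, was at 50.8 and 27.1 FPKM (-0.88), and Ubxn4, which recruits the ATPase p97, at 31.0 and 45.1 FPKM (0.53). Edem2, which starts the mannose trimming that marks glycoproteins for degradation, was at 3.19 FPKM in controls and 9.74 FPKM with JAK2 V617F (1.36). It lies on the minus strand of chromosome 2 (155701677 to 155729475, GRCm38), with no other row at that locus. From about 36 and 127 fragments its ratio was 3.05, with a counting interval of 2.11 to 4.59. The call for Edem2 was lost with a pseudocount of 5 FPKM, where its log2 ratio was 0.85.

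The related mannosidase genes were nearer to equality than Edem2. Edem3 was at 11.5 FPKM in controls and 17.1 FPKM with JAK2 V617F (0.54), and Edem1 at 12.2 and 13.6 FPKM (0.14). Edem2 was thus the lowest of these paralogues in both libraries, and the ratio of Edem1 to Edem2 went from 3.83 to 1.40. Sel1l, the membrane adaptor of the HRD1 ligase, was at 27.4 and 42.2 FPKM (0.61), with an interval of the ratio from 1.41 to 1.68. Syvn1, which encodes HRD1 itself and has an ERSE close to its start, was at 32.1 and 24.5 FPKM (-0.37). The partners Sel1l and Syvn1 therefore lay on opposite sides of 0, also at the same sum (0.78 and -0.20). Herpud1, which recruits that complex, was at 15.7 and 23.3 FPKM (0.54). Herpud1 and Syvn1 each lie in a locus with other rows.

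Of the 8 genes of the translocon and of its TRAP complex, 6 lay below 0 and 2 above (4 and 4 at the same sum), and none passed 2-fold. Sec61a1, the channel subunit, was at 61.7 FPKM in controls and 77.1 FPKM with JAK2 V617F (0.32). Sec61b was at 57.9 and 85.9 FPKM (0.56), and Sec61g at 66.5 and 61.5 FPKM (-0.11, and 0.06 at the same sum). These subunits form a 1:1:1 complex, and their FPKM values were within 1.5-fold of each other in each library.

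The 4 TRAP subunits, which assist the translocation of some signal sequences, all lay below 0 as deposited. Ssr4 was at 95 FPKM in controls and 64.9 FPKM with JAK2 V617F (-0.54), Ssr1 at 37.9 and 28.9 FPKM (-0.38), Ssr2 at 115 and 94.9 FPKM (-0.27) and Ssr3 at 142 and 131 FPKM (-0.12). Ssr3 turned to 0.05 at the same sum, and the others stayed below 0. Serp1, a small translocon protein linked to ER stress, was at 60.7 and 46.1 FPKM (-0.39).

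COPII genes lay mostly below 0, with 5 of 7 below and 2 above as deposited, a median log2 ratio of -0.17 and none past 2-fold. At the same sum 4 were below and the median was 0.00. Sec23a, the inner coat subunit whose loss disturbs collagen export from bone and cartilage cells, was at 13.2 FPKM in controls and 8.21 FPKM with JAK2 V617F (-0.62). Its paralogue Sec23b was at 28.7 and 18.7 FPKM (-0.59). The sum of both Sec23 genes was 41.9 FPKM in controls and 26.9 FPKM with JAK2 V617F, and the ratio of Sec23a to Sec23b was nearly the same, at 0.458 and 0.439.

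The partners of Sec23 in the coat differed less. Sec24d, which selects cargo, was at 9.79 FPKM in controls and 9.72 FPKM with JAK2 V617F (-0.01, and 0.15 at the same sum), from as few as 8 and 9 fragments on its shortest coding transcript. Of the outer coat, Sec31a was at 58.3 and 47.4 FPKM (-0.29) and Sec13, which also serves at nuclear pores, at 32.3 and 36.0 FPKM (0.15). Sar1a, a GTPase that starts the coat, was at 55.4 and 48.9 FPKM (-0.17, and 0.00 at the same sum), and Sar1b, the form linked to lipoprotein export, at 39.4 and 47.0 FPKM (0.25). The sum of both Sar1 genes was 94.8 and 96.0 FPKM. A row spelt MIA3 covers chromosome 1 from 183326725 to 183369529, where Mia3, the gene of the procollagen export receptor TANGO1, lies. It was at 34.5 FPKM in controls and 18.2 FPKM with JAK2 V617F (-0.88), and counting it changed none of the 2-fold calls.

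KDEL receptors, which return ER chaperones from the Golgi, lay on both sides of 0 as deposited and at the same sum. Kdelr1 was at 106 FPKM in controls and 78.1 FPKM with JAK2 V617F (-0.44), and Kdelr2 at 86.8 and 73.2 FPKM (-0.24). Kdelr3, whose window holds a UPRE core, was low in both, at 8.07 and 10.6 FPKM (0.36). The ratio of Kdelr1 to Kdelr3 was 13.2 in controls and 7.34 with JAK2 V617F.

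Grouped by the branch of the unfolded protein response that is known to induce them, the genes lay as follows. The ATF6 list has 11 genes, of which 9 are among the 48 and the others are Hspa5 and Hsp90b1, the genes of the chaperones BiP and GRP94. Of the 11, 10 lay above 0, as deposited and under each of the 3 rescalings, and Hyou1 below. None passed 2-fold, and the median log2 ratio was 0.46, beside -0.04 over all genes. Hspa5 was at 249 FPKM in controls and 383 FPKM with JAK2 V617F (0.62), and Hsp90b1 at 596 and 674 FPKM (0.18). The list was drawn up with values of some of its genes already known, so its direction is no independent evidence. Genes with an ERSE above that are not on it were Pdia6 (0.24), Canx (-0.15), Syvn1 (-0.37) and Ero1lb (-0.62). The count above 0 therefore depends on which genes were listed.

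Targets of the other branches were spread on both sides. Of 19 targets of IRE1 and XBP1, 7 lay above 0 and 12 below, with a median of -0.12 (10, 9 and 0.05 at the same sum), and Edem2 alone passed 2-fold. Of 9 measured targets of PERK and ATF4, 3 lay above 0 and 6 below, with a median of -0.26. Ddit4, an inhibitor of mTORC1 signalling, was the only one past 2-fold, at 16.2 FPKM in controls and 6.89 FPKM with JAK2 V617F (-1.13, and -0.97 at the same sum). The difference between the branch lists was not tested.

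**Figure D4:**
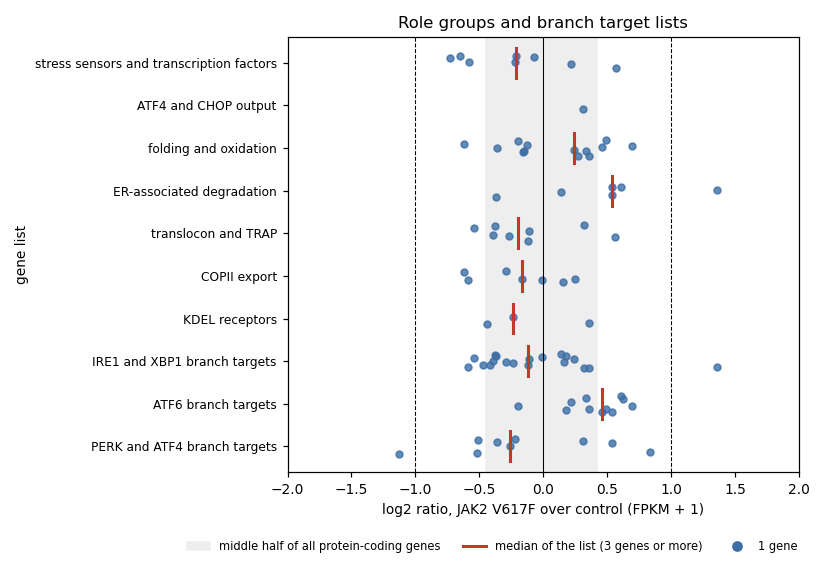
Log2 ratios (x axis, FPKM + 1) of single genes at 1 FPKM or more in the 7 role groups and in the 3 lists of branch targets (y axis), with the median of each list in red, the quartiles of all protein-coding genes as a grey band and 2-fold as dashed lines. The medians of the degradation group (0.54) and of the ATF6 targets (0.46) lie to the right of the grey band, and those of the other lists of 3 genes or more inside it.

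A further 128 genes of the secretory pathway, in 9 lists, gave the setting of these values. Of the 126 that passed the filter, 4 were higher and 5 lower by 2-fold or more (5 and 1 at the same sum), and the median log2 ratio was -0.09. Past 2-fold above were Srp14, of the signal recognition particle, at 31.0 FPKM in controls and 85.2 FPKM with JAK2 V617F (1.43), and Sil1, the nucleotide exchange factor of BiP, at 5.06 and 11.6 FPKM (1.05). Plod1, a collagen lysyl hydroxylase, was at 7.59 and 20 FPKM (1.29), and Derl3, a degradation gene, at 0.383 and 3.16 FPKM (1.59). Past 2-fold below were Sec16b, a scaffold of ER exit sites, at 6.64 and 1.38 FPKM (-1.68), P4ha2, a catalytic partner of P4hb, at 22.5 and 9.76 FPKM (-1.13), and Ddit4. Of the same kind were Aup1, at 103 and 50.1 FPKM (-1.02), and Dnajb2, at 4.57 and 1.66 FPKM (-1.07). Derl3 and Dnajb2 were named after their values were seen, to complete the count.

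The 15 genes of N-glycosylation and glycan trimming had none past 2-fold, a median of -0.04 and summed levels of 900.1 and 900.2 FPKM. The farthest from 0 were the glucosyltransferase paralogues of folding control, Uggt1 at 27.4 FPKM in controls and 38.7 FPKM with JAK2 V617F (0.48) and Uggt2 at 13.8 and 9.02 FPKM (-0.56). The 11 genes of the COPI coat, which returns vesicles to the ER, had none past 2-fold and a median of -0.05, with Copa at 101 and 161 FPKM (0.67) and Copg1 at 54.3 and 38.7 FPKM (-0.48). Of 21 further COPII genes and cargo receptors, 15 lay below 0 and 6 above, with a median of -0.25 (12, 9 and -0.08 at the same sum). In that list the exit-site scaffold Sec16a was at 39.0 and 20.2 FPKM (-0.92) and the COPII organiser Tfg at 112 and 171 FPKM (0.60).

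Of the stress signalling genes outside the 48, 9 of 12 lay below 0, with 1 past 2-fold (Ddit4) and a median of -0.44 (9 of 12 and -0.29 at the same sum). Nupr1, a stress-induced nuclear protein gene, was at 41.4 FPKM in controls and 23.9 FPKM with JAK2 V617F (-0.77), and Crebrf, a negative regulator of this response, at 20.9 and 38.4 FPKM (0.85). Of 10 other measured targets of the integrated stress response, most of them genes of amino acid supply, 5 lay above 0 and 5 below. The median was 0.12, and -0.15 at a filter of 5 FPKM, which leaves out Stc2, a stanniocalcin gene at 0.162 and 1.06 FPKM (0.83). Phgdh, which starts serine synthesis, was at 12.6 and 19.2 FPKM (0.58), and Sars, a tRNA synthetase, at 52.3 and 30.1 FPKM (-0.78).

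The secreted cargo of this machinery was listed as well. Of 15 abundant secreted products, 3 were at least 2-fold higher, 2 at least 2-fold lower, 6 lay above 0 and 9 below, and their summed level was 14356 FPKM in controls and 9628 FPKM with JAK2 V617F, a ratio of 0.671 beside 0.958 for the 48. The bone collagen gene Col1a1 was at 2784 and 1436 FPKM (-0.95) and the matrix gene Sparc at 4686 and 2724 FPKM (-0.78). The cartilage gene Chad was at 102 and 313 FPKM (1.61), and the lubricin gene Prg4, made by surface cells of joints, at 20.1 and 1234 FPKM (5.87). Sums are set by the few highest genes and were not compared by a test.

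**Figure D5:**
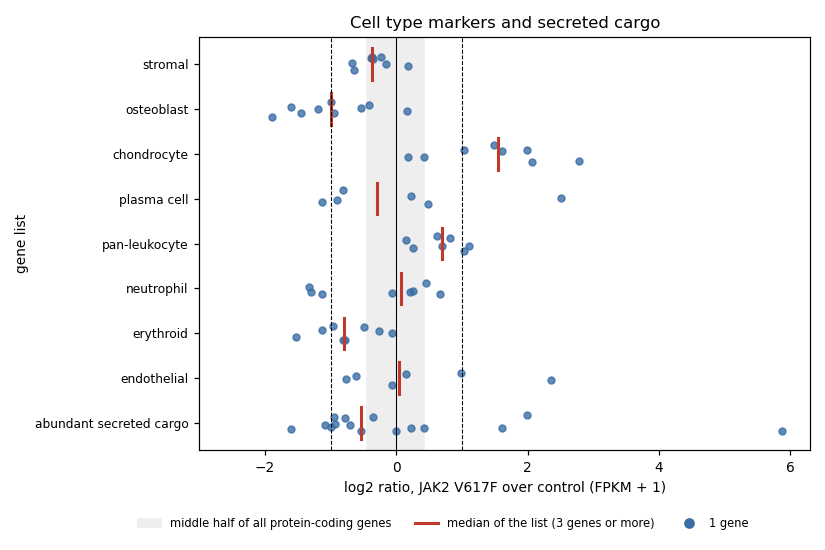
Log2 ratios (x axis, FPKM + 1) of single genes at 1 FPKM or more in 8 lists of cell type markers and in the list of secreted cargo (y axis), with list medians in red, the quartiles of all protein-coding genes in grey and 2-fold dashed. The medians of chondrocyte (1.55) and pan-leukocyte markers (0.69) lie to the right of the grey band. Those of osteoblast (-1.0) and erythroid markers (-0.80) and of the cargo (-0.54) lie to the left. Single markers differ from their list, such as Acan (0.17, chondrocyte) and Alpl (0.16, osteoblast) inside the band, and the cargo genes spread over both sides.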

How the data were processed

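Per the labels' protocols, a few nanograms of RNA per pool were amplified to cDNA before library preparation, which can distort relative levels. The authors deposited 1 FPKM value per gene and library. Per the submitters' processing notes, the tools included TopHat2 2.0.7 with Bowtie2 2.0.6, Cufflinks and cutadapt 1.2.1, and the build was GRCm38. The sources used here do not give the annotation, strand use, scaling or settings. Of 35798 rows, 401 name several genes and were left out. Row starts were converted to count from 1.

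FPKM are not counts and n = 1 per group, so no test was run. Ratios (pseudocount 1 FPKM, filter 1 FPKM, call at 2-fold) were computed in Python 3.11.15. The 2-fold call and the depth estimate were checked on simulated data with counting noise only. For the call these were well-expressed genes with large changes, so the check does not bear on small ratios or low genes. Gene types came from RefSeq GRCm38.p6, also for synonyms of genes outside the 48. Fragments were estimated from steps in 4913 genes with 1 transcript in GENCODE vM21, with 150 nt taken off each length, an offset picked for the sharpest steps. Of low values, 81.1% and 84.0% lay within 0.2 of a whole fragment. Intervals used the shortest coding transcript. The alternatives were other pseudocounts, filters and scalings.

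The members and lists were chosen with earlier results of these data known. All members are named, with the 2 highest and 2 lowest ratios at 5 FPKM or more in a list as the pool for other pathway genes, of which some are printed.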

Additional observations from a re-analysis of the deposited data

How the results depend on the processing

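No paired analysis was possible because each genotype has 1 library. With 1 library per genotype no replicate could be left out, and on shortest coding transcripts the fewest fragments stood behind Chac1, Trib3, Sec24d, Ddit3, Ern1, Edem2 and Ero1lb. Of 452 values recomputed for whole lists, 397 stayed within the standard error among a list's genes (medians) or within 1.5 times (counts). Many of the counts were 0 in the main setting and stayed 0, so this share overstates how firm the results are. Genes of a list are also not replicates of a genotype. Including rows that name several genes or the MIA3 row, or leaving out 15 genes whose locus holds other rows (the last 2 chosen after seeing the data), kept 1 gene higher, 0 lower and medians of -0.12, -0.12 and -0.07. Those 15 genes were Atf6, Eif2ak3, Ddit3, Pdia3, Pdia6, Ero1lb, Ppib, Manf, Herpud1, Syvn1, Serp1, Sec23a, Sec24d, Kdelr1 and Kdelr3. Called at 1.5-fold, 3 genes were higher and 5 lower.

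With a pseudocount of 5 FPKM, 0 of the 46 genes were 2-fold higher, as were 0 in the role group of degradation, the XBP1 targets, the other chaperones, the other degradation genes and procollagen processing. At the same setting 0 were lower among the PERK targets, other degradation, other COPII, other signalling and procollagen genes and among all other pathway genes, where 1 was higher, and the other signalling median was -0.20. With a pseudocount of 0.1 FPKM, 1 gene each was higher among PERK targets and other stress response targets. The median of other stress response targets was 0.31 with no filter and -0.15 at 5 FPKM, where other degradation genes had 0 higher and 1 lower.

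At the same sum, medians were 0.06 for the 46, -0.04 for sensors, 0.41 for folding, -0.02 for the translocon, 0.00 for COPII, 0.05 for XBP1 and 0.63 for ATF6 targets. They were 0.26 for other chaperones, 0.29 for other stress response targets, 0.20 for signal recognition, 0.13 for glycosylation and for COPI, -0.08 for other COPII and 0.08 for all other pathway genes. Genes 2-fold lower were then 0 for PERK targets, other signalling (1 higher), other degradation and procollagen genes, and 1 for cargo and for all other pathway genes. With equal sums over protein-coding genes, or centred on the median ratio, the medians were -0.03 and -0.02 for the 46, 0.55 for ATF6 targets, 0.05 for glycosylation and 0.00 for all other pathway genes, with 1 gene lower for cargo and for other degradation. These shifts follow from the added constant of each rescaling (0.18, 0.09 and 0.09).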
